A study of Rattus norvegicus with 16 samples.

Results

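The serotonin, dopamine, adrenergic, muscarinic, nicotinic and histamine receptor genes of the rat hippocampus were measured in naïve, sham-injured, brain-injured and drug-treated brain-injured rats. The receptor genes were taken by name as all non-control probes for Htr, Drd, Adra and Adrb, Chrm, Chrn and Hrh genes, which gave 58 probes for 52 genes of the 26583 gene names on the array. Each gene was represented by its probe of highest mean signal, and 6 genes had a second probe. The muscarinic Chrm1 was not analysed here.

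The 16 single-colour arrays each held hippocampal RNA of 1 adult male Sprague-Dawley rat. The 3 Naïve rats were neither anaesthetised nor handled, and the 2 Sham rats were anaesthetised and prepared for surgery without injury. The 3 TBI rats received a parasagittal fluid percussion traumatic brain injury, in which a pulse of fluid strikes the exposed dura, and no drug. All rats of the drug groups were injured in the same way. The 3 TBI+PMI-006 rats were given 250 mg/kg PMI-006 by gavage, the 3 TBI+JM6 rats 400 mg/kg JM6 by gavage, and the 2 TBI+E2 rats 33 ug/kg 17β-estradiol. Hippocampi were taken 24 h post-injury or at the matching time, and no uninjured rat given a drug was among these arrays.

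Many of these receptors carry signals of the brainstem and basal forebrain fibres that reach the hippocampus. The serotonin, dopamine, adrenergic, muscarinic and histamine receptors are G protein-coupled receptors that raise or lower second messengers, except for the serotonin Htr3 subunits, which form an ion channel. The nicotinic receptors are ion channels of several subunits that open when acetylcholine binds. In the hippocampus many of these receptors tune the excitability of pyramidal cells and interneurons, synaptic plasticity and memory. Many are targets of antidepressant and antipsychotic drugs.

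Values are log2 of the scanner signal after division by the 75th percentile of the probes well above background on the same array. A value of 0 therefore equals that percentile, values below 0 lie under it, and values near −8 sit at the floor of the scanner. Well above background is the scanner software's own call for a spot. The level of one probe was not set against that of another, since probes differ in how well they bind. A gene passed the test where the Benjamini-Hochberg adjusted p of limma was under 0.05 over all probes tested.

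The probes below are those of the receptor genes that passed the test among the Naïve, Sham and TBI groups, since these letters are what each result measures. Chrnb2 passed in Sham against Naïve alone. They are given 5′ to 3′ with their rn4 positions, and nothing in them is capitalised because no motif was searched. The exon or UTR that each lies in was not assigned here. The first 4 are the full probes.

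Adrb1, chr1:263026996-263027055, plus strand: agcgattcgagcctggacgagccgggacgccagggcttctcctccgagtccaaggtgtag
Adra2c, chr14:81108144-81108203, minus strand: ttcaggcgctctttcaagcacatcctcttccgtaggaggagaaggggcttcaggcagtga
Chrna4, chr3:170171576-170174943, minus strand: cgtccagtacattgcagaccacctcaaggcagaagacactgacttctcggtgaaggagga
Chrne, chr10:57497308-57497367, minus strand: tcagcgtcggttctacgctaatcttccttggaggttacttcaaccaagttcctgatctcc

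The Chrna4 probe of 60 bases is placed over 3368 bases of the genome, so it reads across a gap in the genomic sequence. Of the 5 other probes, the first 30 bases are given.

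Htr2b, chr9:84840183-84840242, minus strand: tcaacgcacgggtatagtagttccgtatgg
Htr7, chr1:240135108-240135167, minus strand: gcagaaagggttcctttgtggatagtatcc
Drd2, chr8:52707670-52707729, plus strand: tgcagtttggagggttctgggatccaactc
Chrm4, chr3:76309651-76309710, plus strand: acccccaacaaagctccctggcaaactccc
Chrnb2, chr2:181961457-181961516, minus strand: tagtacttggcgcccacccacttaagtgag

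Hrh3 is shown for its 2 probes, which gave different values between the same groups. The probe of higher signal lies downstream and its first 30 bases are given, followed by the full second probe.

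Hrh3, chr3:169154985-169155044, minus strand: gcccttgtgccctggtgtgctgcctctgcc
Hrh3 second probe, chr3:169156371-169156430, minus strand: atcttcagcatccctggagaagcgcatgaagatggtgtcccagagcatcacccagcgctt

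The arrays were scanned in 2 sessions, 1 with the Naïve, Sham and TBI groups and 1 with the drug groups, so drug treatment and session cannot be told apart between a drug group and any other group. Of all probes, 16282 to 18245 were well above background on the arrays of the first session and 20259 to 24984 on those of the second, and the mean log2 signal of the added E1A control transcripts was 8.14 to 8.89 against 9.31 to 9.92. Arrays of a group correlated with r from 0.964 to 0.986 across probes. Of 8 listed markers of hippocampal fields, among them Prox1 of dentate granule cells and Wfs1 of CA1 pyramidal cells, 6 were well above background on all 16 arrays. In whole tissue, fewer cells of a type and less RNA in each cell cannot be told apart.

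Many receptor genes lay close to the detection limit. Of the 52 genes, 16 were well above background on all 16 arrays, 30 on some and 6 on none, the last being Htr1f, Htr3b, Drd4, Chrna6, Chrnb3 and Chrng. The 16 comprised 5 of 14 serotonin, 0 of 5 dopamine, 4 of 9 adrenergic, 2 of 4 muscarinic, 3 of 16 nicotinic and 2 of 4 histamine receptor genes. The number well above background on each array was 25, 26 and 26 in the Naïve rats, 26 and 32 in Sham, 22, 26 and 21 in TBI, 34, 34 and 26 in TBI+PMI-006, 34, 39 and 43 in TBI+JM6, and 34 and 41 in TBI+E2. The 2 lowest counts were on TBI arrays, and the drug arrays held the highest, as they did over all probes. The share of the 52 genes detected on every array of a group was 44.2% in Naïve, 50% in Sham, 34.6% in TBI, 48.1% in TBI+PMI-006, 65.4% in TBI+JM6 and 63.5% in TBI+E2. Over all probes it was 50.9%, 54.4%, 51.8%, 64.9%, 69.2% and 73.1% in the same order.

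**Figure D1:**
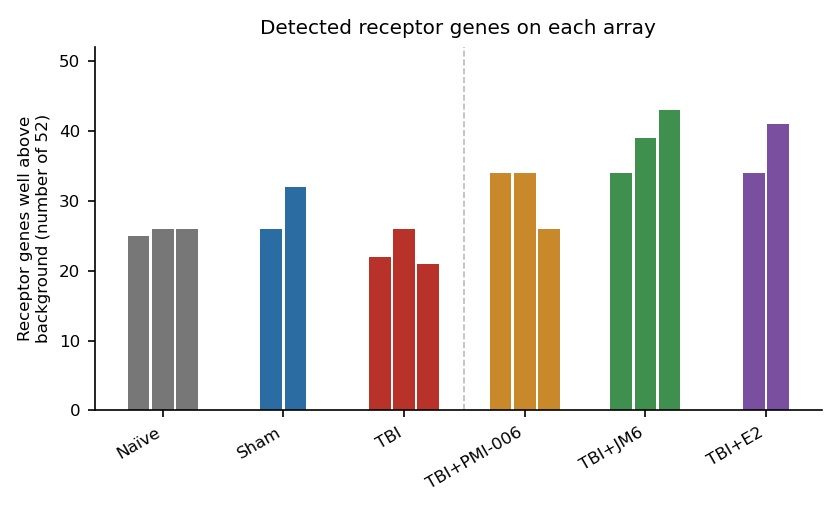
Number of the 52 receptor genes well above background (vertical axis) on each array, by group (horizontal axis). Each bar is 1 array, and the dashed line divides the 2 scanning sessions. Counts run from 21 to 32 left of the line and from 26 to 43 right of it.

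A test was made for the 38 receptor genes whose probe was called above background throughout at least 1 of the groups: 11 serotonin, 3 dopamine, 8 adrenergic, 3 muscarinic, 10 nicotinic and 3 histamine receptor genes. This filter admits a gene through the group in which it is high, so the other 14 genes are described by their levels alone.

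Whether injury changed these receptors was asked by comparing TBI with Sham. The β1-adrenergic receptor Adrb1 and the α2C-adrenergic receptor Adra2c were lower in TBI than in Sham, and the serotonin receptor Htr2b was higher. Neither adrenergic gene passed against Naïve. Of the 38 genes, 1 passed the test as higher and 2 as lower, while 2.93% of all probes tested were called higher and 6.49% lower. The receptor genes were thus called about as often as all probes. The median difference of the 38 genes was −0.51 on the log2 scale against −0.03 over all probes, with 7 positive and 31 negative. The values of the groups did not overlap for 15 genes, with 2 higher and 13 lower in TBI, and with 2 against 3 arrays this is a coarse measure. The share of all probes without overlap is not given, here or in later comparisons. These counts therefore describe the 38 genes alone.

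Compared with Naïve rats, which share the same TBI arrays, 1 receptor gene was higher in TBI and 5 were lower. Htr2b was again the one that was higher, and the lower ones were the dopamine receptor Drd2, the serotonin receptor Htr7, the muscarinic receptor Chrm4 and the nicotinic subunits Chrna4 and Chrne. Over all probes tested, 2.98% were called higher and 1.73% lower. The median difference of the 38 genes was −0.48 against 0.04 over all probes, with 12 positive and 26 negative, and 1 gene was higher and 11 lower without overlap. Both TBI comparisons use the same 3 injured rats.

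**Figure D2:**
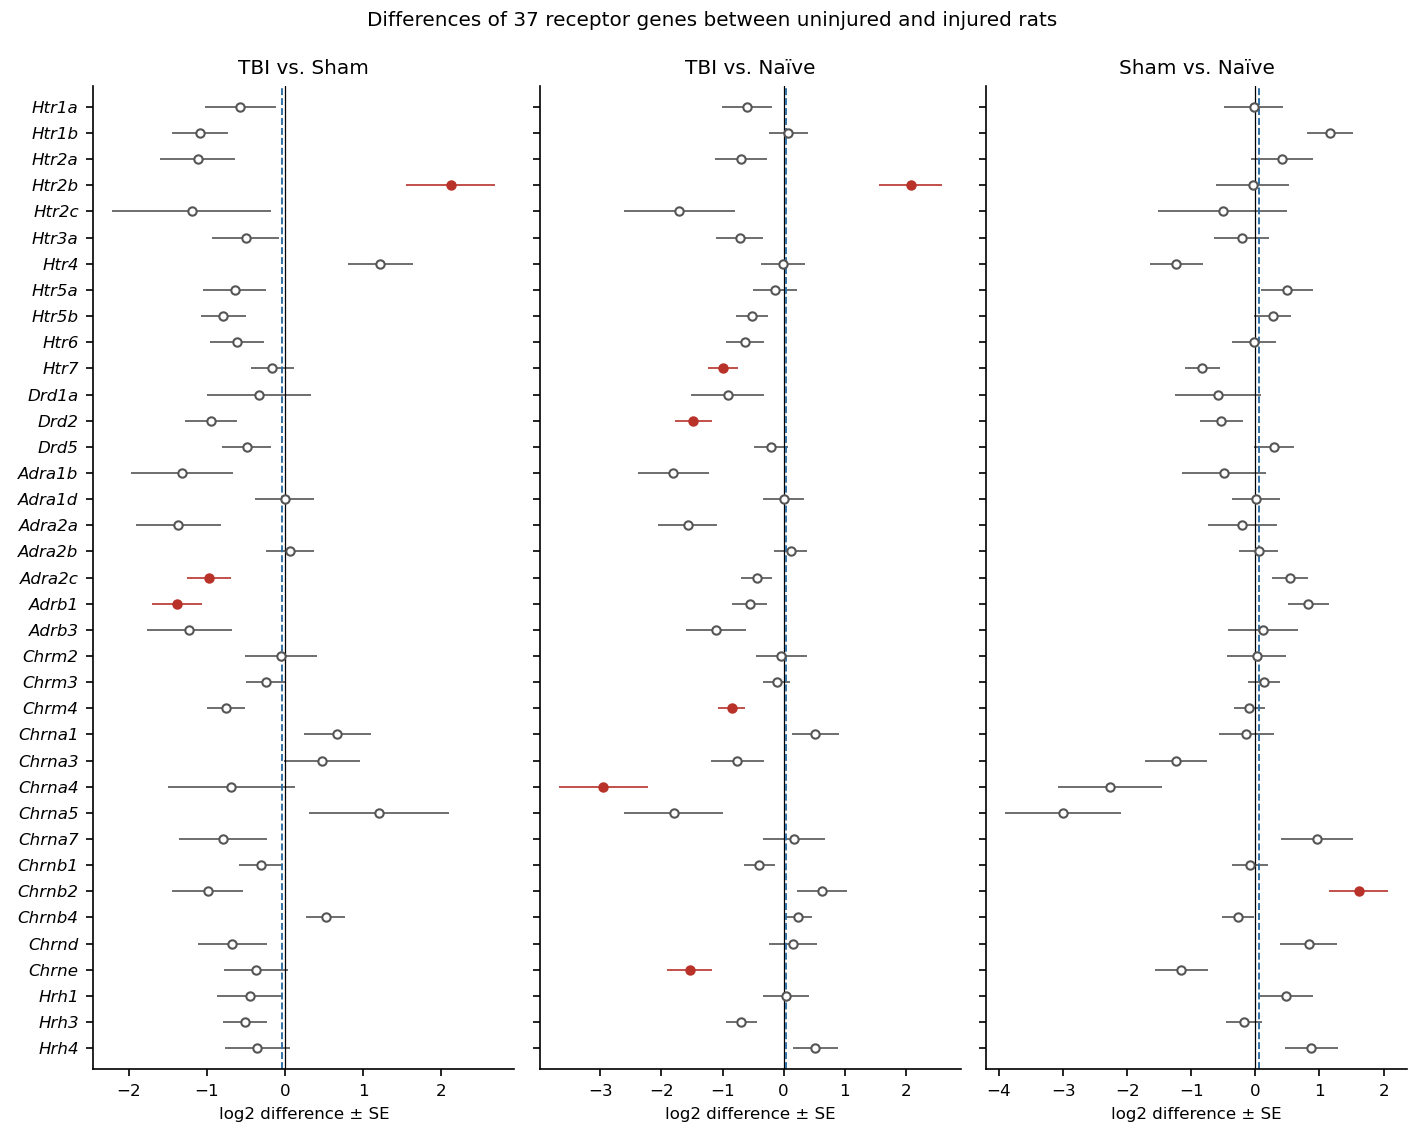
Log2 difference ± SE from limma (horizontal axis) for 37 of the 38 tested receptor genes (vertical axis) in the comparisons among the Naïve, Sham and TBI groups. Red filled points passed the test, and the blue dashed line is the median of all probes tested. In TBI against Sham, 30 of 37 points lie left of 0 and 3 passed.

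Among the serotonin receptors, Htr2b stood apart from its family. Htr2b encodes a Gq-coupled receptor known from heart, gut and blood vessels and from microglia. Its values were −7.94, −6.85 and −7.98 in Naïve, −7.01 and −8.26 in Sham, and −6.61, −4.45 and −5.48 in TBI. The probe was not well above background on any Naïve or Sham array, and it was on 2 of 3 TBI arrays. The injured arrays all lay above the uninjured ones, with the first TBI array (−6.61) close to the highest Naïve array (−6.85). Htr2b was at least 1.74-fold higher in TBI than in Sham (log2 difference 2.12, SE 0.57, adjusted p = 0.037, limma) and at least 1.45-fold higher than in Naïve (2.08, SE 0.51, adjusted p = 0.037). Here and below, such a bound sets the mean of the detected group against the mean of a limit on each array of the other. The limit is the lowest signal called well above background, or the probe's own value where that was higher. Without the second TBI array the difference from Sham was 1.59 (adjusted p = 0.11) and without the first it was 2.67 (adjusted p = 0.005). Without the third TBI array the adjusted p was 0.10 against Sham and 0.11 against Naïve, and without either Sham array it was 0.064 and 0.25 against Sham. Against Naïve it was 0.13 without the second TBI array, and 0.13 and 0.097 without the first and the third Naïve arrays. Quantile normalization, which gives all arrays one distribution, left 1.88 (adjusted p = 0.07) against Sham and 2.02 (adjusted p = 0.048) against Naïve.

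Htr7, a Gs-coupled serotonin receptor, was lower in TBI than in Naïve rats. Its values were −3.36, −2.32 and −3.10 in Naïve, −3.78 and −3.73 in Sham, and −4.02, −4.11 and −3.63 in TBI. All TBI arrays lay below all Naïve arrays, and the Sham arrays fell within the TBI range. The difference between TBI and Naïve was −0.99 (SE 0.24, adjusted p = 0.038, limma), whereas that between TBI and Sham was −0.16 (SE 0.27, adjusted p = 0.74) and that between Sham and Naïve −0.83 (SE 0.27, adjusted p = 0.085). The adjusted p for TBI against Naïve was 0.058, 0.13 and 0.065 without the first, the second and the third TBI arrays, and 0.092 and 0.060 without the second and the third Naïve arrays. The second Htr7 probe, which was detected on 1 Naïve array, 2 Sham arrays and no TBI array, gave −0.55 (SE 0.35) in TBI against Naïve. Unlike the first probe, it gave 0.28 (SE 0.39) in Sham against Naïve and −0.83 (SE 0.39) in TBI against Sham.

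The remaining serotonin receptors did not pass the test among the Naïve, Sham and TBI groups. Of the 11 tested, 9 had a lower mean in TBI than in Sham, and the family median was −0.62. Htr1a, the inhibitory receptor of hippocampal pyramidal cells, had a mean of −2.65 ± 0.34 (SD, n = 3) in Naïve, −2.67 ± 0.00 (n = 2) in Sham and −3.25 ± 0.27 (n = 3) in TBI. Htr2a, a Gq-coupled cortical receptor, was well above background on 2 of 3 Naïve, 1 of 2 Sham and 0 of 3 TBI arrays, with means of −5.95, −5.53 and −6.65. Its second probe was detected on none of these 8 arrays and had the opposite sign, 0.14 (SE 0.33), in TBI against Naïve. The ion channel subunit Htr3a, a marker of a class of hippocampal interneurons, had means of −2.52, −2.74 and −3.24 in the same order. Htr4, a Gs-coupled receptor, was lowest in Sham, at −6.35 and −5.36 against −4.97 to −4.34 in Naïve and −4.75 to −4.44 in TBI, and neither Sham comparison passed (TBI against Sham 1.22, SE 0.41, adjusted p = 0.080).

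Htr2c, a receptor abundant in the epithelium of the choroid plexus as well as in neurons, varied widely within groups. Its values were −1.78, −0.54 and −1.38 in Naïve, −0.53 and −2.96 in Sham, −3.68, −2.23 and −2.92 in TBI, −0.02, −2.67 and −3.36 in TBI+PMI-006, −2.91, −0.57 and −2.51 in TBI+JM6, and −0.54 and −2.13 in TBI+E2. The difference between TBI and Sham was −1.20 (SE 1.01, adjusted p = 0.49, limma). The second Htr2c probe was detected on 1 Naïve, 1 Sham and no TBI array and gave −1.88 (SE 0.82) there. In Sham against Naïve the 2 probes differed in sign, at −0.51 (SE 1.01) and 1.03 (SE 0.82). Against TBI the first probe gave 0.95, 0.93 and 1.61 in TBI+JM6, TBI+PMI-006 and TBI+E2 (quantile −0.08, 0.07 and 0.59). The second gave 2.98, 2.99 and 4.10 (quantile 1.41, 1.77 and 2.61). The summed scaled signal of 11 choroid plexus genes was 77.8 on the Naïve array with the highest Htr2c and 2.37 and 2.999 on the others, and none of the listed genes passed the test in TBI against Sham. It was 124 on the Sham array with the highest Htr2c against 4.95 on the other, and 154 on the TBI+PMI-006 array with the highest Htr2c against 0.34 and 7.76. In TBI the highest sum, 3.57, was on the array with the lowest Htr2c (−3.68), and the others had 0.25 and 0.52. In TBI+JM6 and TBI+E2 the sums were 0.54 to 1.92, also on the arrays with an Htr2c of −0.57 and −0.54. The part of choroid plexus tissue in the Htr2c values was not tested.

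Of the dopamine receptors, Drd2 was lower in injured than in naïve hippocampi. Drd2 encodes the inhibitory D2 receptor. Its values were −3.58, −4.24 and −4.51 in Naïve, −4.98 and −4.30 in Sham, and −5.98, −5.24 and −5.54 in TBI, where 1 array was not well above background. All TBI arrays lay below all Naïve and Sham arrays. The difference was −1.48 (SE 0.30, adjusted p = 0.019, limma) from Naïve and −0.95 (SE 0.34, adjusted p = 0.094) from Sham. Without the first Naïve array the adjusted p was 0.076 (difference −1.21), and without the third TBI array it was 0.062 (difference −1.50). The second Drd2 probe was not well above background on any of these arrays. Genes typical of striatum, where Drd2 is abundant, summed to 3.23 to 3.71 in Naïve, 2.57 to 2.73 in Sham and 1.95 to 2.63 in TBI, with 6 of 8 listed genes well above background on all arrays and none of 7 tested passing the test in TBI against Naïve. The part of neighbouring striatal tissue in the Drd2 values was not tested.

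The D1-like receptors were dimmer. Drd1a (Drd1) was well above background on 3 of 3 Naïve, 1 of 2 Sham and 1 of 3 TBI arrays, with values of −5.82 to −5.56, −6.48 and −6.07, and −7.59, −5.05 and −7.17. The spread of the TBI arrays spanned both other groups, and the difference from Naïve was −0.91 (SE 0.59, adjusted p = 0.42, limma). Drd5, the D1-like receptor most associated with the hippocampus, had means of −5.50 ± 0.37 (SD, n = 3), −5.21 ± 0.03 (n = 2) and −5.70 ± 0.17 (n = 3) in Naïve, Sham and TBI. Drd3 was detected on 1 TBI+JM6 and 1 TBI+E2 array alone.

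The adrenergic receptors had the lowest family median in TBI against Sham, −1.10 on the log2 scale over 8 genes, of which 7 were negative and 2 passed the test. Adrb1, the main β-adrenergic receptor of forebrain neurons, had values of −5.94, −5.73 and −5.85 in Naïve, −5.02 and −5.01 in Sham, and −6.47, −5.85 and −6.87 in TBI. It was well above background on no Naïve array, on both Sham arrays and on 1 TBI array. The TBI arrays all lay below the Sham arrays but overlapped the Naïve ones, and the difference was −1.38 from Sham (SE 0.32, adjusted p = 0.023, limma; −1.10 after quantile normalization, adjusted p = 0.042) and −0.56 from Naïve (SE 0.29, adjusted p = 0.30). With either Sham array left out the adjusted p rose to 0.10, and it was 0.083 without the third TBI array. E1A scaling gave −1.26 (adjusted p = 0.060), and normexp background correction turned the sign, at 0.34 (adjusted p = 0.83).

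Adra2c, an inhibitory α2 receptor found in hippocampus and striatum, was well above background on all arrays. Its values were −1.02, −1.52 and −1.51 in Naïve, −1.30 and −0.33 in Sham, and −1.62, −1.79 and −1.97 in TBI. The TBI arrays were the lowest 3 of the 8, and 1 Sham array was far above the other. The difference was −0.98 from Sham (SE 0.28, adjusted p = 0.047, limma) and −0.44 from Naïve (SE 0.25, adjusted p = 0.35). Without the second Sham array the difference from Sham was −0.49 (adjusted p = 0.38), and after quantile normalization it was −0.86 (adjusted p = 0.075).

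Adra2a, the widespread α2A receptor, was well above background on 1 Naïve, 1 Sham and no TBI array. Its values were −6.32 to −6.00 in Naïve, −6.43 and −6.19 in Sham, and −8.16, −6.69 and −8.18 in TBI, all below the uninjured arrays. The difference from Naïve was −1.57 (SE 0.48, adjusted p = 0.083, limma), and after quantile normalization it was −2.20 (adjusted p = 0.045). The other adrenergic receptors did not pass. The α1D receptor Adra1d had means of −0.37, −0.36 and −0.37 in Naïve, Sham and TBI. The α1A receptor Adra1a was well above background on no array of these groups, at −8.32 to −8.15 in the mean.

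The muscarinic receptors were led by Chrm4, the inhibitory M4 receptor. Its values were −0.04, −0.41 and −0.64 in Naïve, −0.82 and −0.10 in Sham, and −1.10, −1.21 and −1.34 in TBI, on the bright part of the scale. All TBI arrays lay below all uninjured arrays. The difference was −0.85 from Naïve (SE 0.22, adjusted p = 0.044, limma) and −0.75 from Sham (SE 0.24, adjusted p = 0.070). The adjusted p from Naïve was 0.084 to 0.17 without the first or second Naïve array and 0.11 and 0.14 without the second and the third TBI arrays. Chrm3, a Gq-coupled receptor, had means of −0.21, −0.07 and −0.32 in Naïve, Sham and TBI. Chrm2, the autoreceptor of cholinergic terminals, was not well above background on any of these arrays with either of its probes.

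Among the nicotinic subunits, Chrna4 and Chrne were lower in TBI than in Naïve. Chrna4 forms, with Chrnb2, the main high-affinity nicotinic receptor of the brain. Its values were −1.57, −1.62 and −2.66 in Naïve, −5.04 and −3.39 in Sham, and −6.27, −3.15 and −5.29 in TBI. All Sham and TBI arrays lay below the Naïve arrays, and Sham and TBI overlapped. The differences were −2.95 for TBI against Naïve (SE 0.73, adjusted p = 0.038, limma), −2.27 for Sham against Naïve (SE 0.81, adjusted p = 0.11) and −0.69 for TBI against Sham (SE 0.81, adjusted p = 0.63). The adjusted p for TBI against Naïve was 0.052 to 0.13 with any single Naïve array left out, and it was 0.073 and 0.13 without the first and the third TBI arrays.

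Chrne, the ε subunit known from the mature neuromuscular junction, followed the same order of group means. Its values were −3.70, −4.42 and −4.37 in Naïve, −5.59 and −5.05 in Sham, and −6.42, −4.88 and −5.79 in TBI, where 2 arrays were not well above background. The Naïve arrays again lay above all others. The difference between TBI and Naïve was −1.53 (SE 0.37, adjusted p = 0.035, limma), and it was 0.056 to 0.14 in adjusted p with any single Naïve array left out and 0.063 and 0.11 without the first and the third TBI arrays.

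Chrnb2, the β2 partner subunit, was the only receptor gene that passed the test in Sham against Naïve. It was well above background on every array of no group but Sham, so it entered the test through the group in which it was then higher, and its difference is a description. Its values were −6.99, −6.30 and −7.23 in Naïve, with none well above background, and −5.16 and −5.30 in Sham, both well above background. In TBI they were −6.99, −5.48 and −6.17, of which the first lay within the Naïve range. Chrnb2 was at least 1.76-fold higher in Sham than in Naïve (log2 difference 1.61, SE 0.46, adjusted p = 0.048, limma), and without 1 array the adjusted p was 0.040 to 0.18. Without the filter on dim probes the adjusted p was 0.072. The difference of its partner Chrna4 between Sham and Naïve, −2.27, had the opposite sign and did not pass. The α7 subunit Chrna7, which forms a homomeric channel, was well above background on 0 of 3 Naïve, 2 of 2 Sham and 1 of 3 TBI arrays, with means of −6.58, −5.62 and −6.42. Chrna5, an accessory subunit, was highest in Naïve (−0.42, −1.05 and −2.13) with −5.60 and −2.81 in Sham, a difference of −3.00 (SE 0.90, adjusted p = 0.060).

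The histamine receptors did not pass the test in any of these comparisons. Hrh3, the presynaptic H3 receptor, had values of 1.23, 0.86 and 0.66 in Naïve, 0.42 and 1.06 in Sham, and 0.63, 0.06 and −0.02 in TBI. The difference between TBI and Sham was −0.51 (SE 0.28, adjusted p = 0.27, limma) with this probe and −1.10 (SE 0.36) with the second probe. Hrh1, a Gq-coupled receptor, had means of −5.24, −4.77 and −5.21 in Naïve, Sham and TBI, and Hrh2 was well above background on none of these arrays.

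Sham against Naïve, which compares anaesthesia and surgery with no handling, had 1 receptor gene higher and 0 lower by limma against 6.57% of probes called higher and 1.52% lower, and 9 receptor genes had an unadjusted p under 0.05. The methods' t-test, a test of each probe by itself at an unadjusted p under 0.05 and a difference over 1.2-fold, called 0 after Benjamini-Hochberg adjustment and 4 at their unadjusted threshold. Shares of all probes at unadjusted thresholds are not given, here or in later comparisons, so such counts have no baseline. The median difference was −0.02 for the 38 genes and 0.06 for all probes, with 18 positive and 20 negative, and 10 were higher and 6 lower without overlap.

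**Figure D3:**
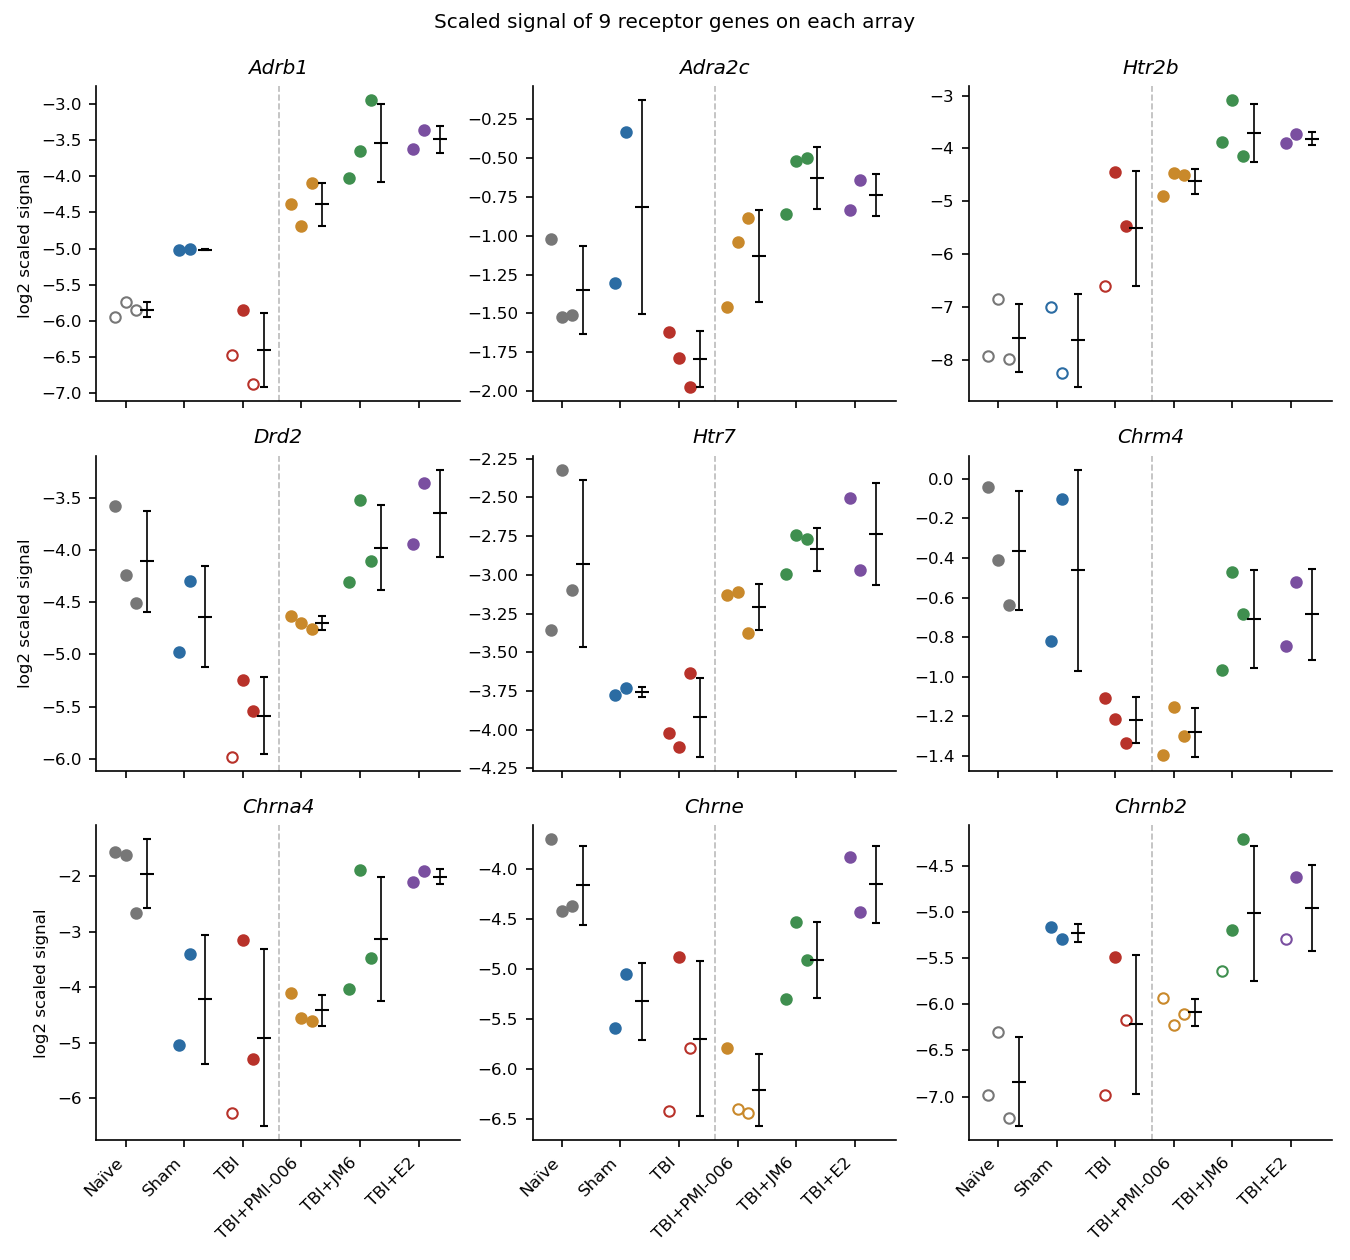
Log2 scaled signal (vertical axes) of the 9 receptor genes that passed the test among the Naïve, Sham and TBI groups, on each array of the 6 groups. Open circles were not well above background, bars are the mean ± SD, and the dashed line divides the scanning sessions. In the panels of Drd2, Adra2c and Chrm4 all TBI points lie below all Naïve and Sham points.

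These calls depended on how the spread was estimated and on the slides. With the 8 arrays of the first session alone, each of the 10 calls among Naïve, Sham and TBI kept its sign and none passed, with adjusted p of 0.075 to 0.16. Slide 1 held 2 Naïve and both Sham arrays and slide 2 held 1 Naïve and all TBI arrays, so that TBI and Sham were never on 1 slide. Within slide 2 the differences between the 3 TBI arrays and the 1 Naïve array were 2.47 for Htr2b, −2.24 for Chrna4, −1.33 for Chrne, −1.07 for Drd2, −0.82 for Htr7 and −0.58 for Chrm4, each of the sign found over all arrays. Within slide 1 Sham minus Naïve was 1.42 for Chrnb2 and −2.62 for Chrna4. With slide as a fixed block none passed, at adjusted p of 0.28 to 0.84 (limma). Slide as a random block, with a consensus correlation of −0.0871, kept these 10 calls.

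Markers of several cell types also differed between the groups. The summed signal of 9 neuronal genes was 39.4 to 43.1 in Naïve, 42.3 to 47.5 in Sham and 29.2 to 37.2 in TBI, and 2 of 10 tested (Slc17a7 and Snap25) were lower in TBI than in Sham. The summed signal of 8 hippocampal field genes was 8.20 to 10.5, 12.9 to 13.2 and 6.36 to 9.58 in the same order, with C1ql2 and Fibcd1 lower in TBI than in Sham. The sum of 10 microglial and leukocyte genes was 5.19 to 5.77, 5.98 to 9.14 and 7.47 to 11.2. In TBI against Sham 4 of 11 were higher and 2 lower, with a median difference of 0.43. Vessel wall genes summed to 2.16 to 7.01, 3.83 to 4.42 and 3.55 to 10.6, with Cldn5 lower in TBI than in Sham, and thalamic and habenular genes to 0.64 to 2.92, 0.90 to 1.17 and 0.55 to 0.83, with Tnnt1 lower. The part of these cell types in the receptor values was not tested.

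Most genes that make, move or break down monoamines and acetylcholine did not pass the test. Of 16 tested, 1 was higher and 1 lower in TBI than in Sham, and the median difference was −0.02. Slc18a1, a vesicular monoamine transporter, was higher in TBI than in Sham (1.52, SE 0.37, adjusted p = 0.027, limma) and lower in Sham than in Naïve (−1.81, SE 0.37, adjusted p = 0.013). Hnmt, which inactivates histamine, was lower in TBI than in Sham (−0.88, adjusted p = 0.047). Gch1, the first enzyme of the cofactor that monoamine synthesis needs, was higher in TBI than in Naïve (2.72, SE 0.64, adjusted p = 0.032), the one call of that comparison. Tph2, the rate-limiting enzyme of neuronal serotonin synthesis, was higher in Sham than in Naïve (1.16, adjusted p = 0.028).

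Of 15 tested genes for proteins that fold, tether or desensitise these receptors, 1 was higher and 1 lower in each comparison among the Naïve, Sham and TBI groups, with a median of −0.44 in TBI against Sham. Arrb1, which encodes β-arrestin and uncouples G protein-coupled receptors, was lower in TBI than in Sham (−1.36, SE 0.28, adjusted p = 0.014, limma) and higher in Sham than in Naïve (1.78, SE 0.28, adjusted p = 0.005). S100a10 (p11), a binding partner of serotonin receptors, was higher in TBI than in Sham (1.58, SE 0.40, adjusted p = 0.032) and than in Naïve (1.62, SE 0.36, adjusted p = 0.029), with 2 of 3 TBI arrays usable because 1 spot was marked as an outlier. Lypd1, a brake on nicotinic receptors, was lower in TBI than in Naïve (−1.26, SE 0.26, adjusted p = 0.019). Agrn, the organiser of nicotinic receptor clusters, was lower in Sham than in Naïve (−0.68, adjusted p = 0.041).

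The drug groups were compared with TBI to ask what each compound changed in injured hippocampi. Most receptor genes had higher scaled values in the drug groups than in TBI, and so did most probes of the array, so both the methods' scaling and quantile normalization are given. In TBI+JM6, 26 of 38 receptor genes were called higher and 1 lower, against 69.9% and 0.175% of all probes. The median difference was 1.21 for the receptor genes and 0.99 for all probes. After quantile normalization 4 were called higher and 7 lower, against 13.9% and 13.3% of all probes, and the medians were −0.12 and −0.00. Of the 26 genes called higher, 11 had a negative difference after quantile normalization, and 9 were above background on no TBI array. With the methods' scaling 25 genes were higher without overlap and none lower, in a comparison where 69.9% of all probes were called higher.

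In TBI+PMI-006, 14 receptor genes were called higher and 0 lower, against 56.7% and 0.0482% of all probes, with 14 at an unadjusted p under 0.05 by limma, and the methods' t-test called 7 after adjustment, all higher. The medians were 0.72 and 0.79. After quantile normalization 1 was called higher and 8 lower, against 9.96% and 9.21%, with medians of −0.60 and −0.01. In TBI+E2, 27 were called higher and 1 lower, against 70.2% and 0.092% of all probes, with medians of 1.56 and 1.08. After quantile normalization 2 were called higher and 5 lower, against 10.4% and 10% of all probes, with a receptor median of −0.19. Without overlap, 14 genes were higher and 0 lower in TBI+PMI-006 and 31 higher and 1 lower in TBI+E2, again without the share of all probes.

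**Figure D4:**
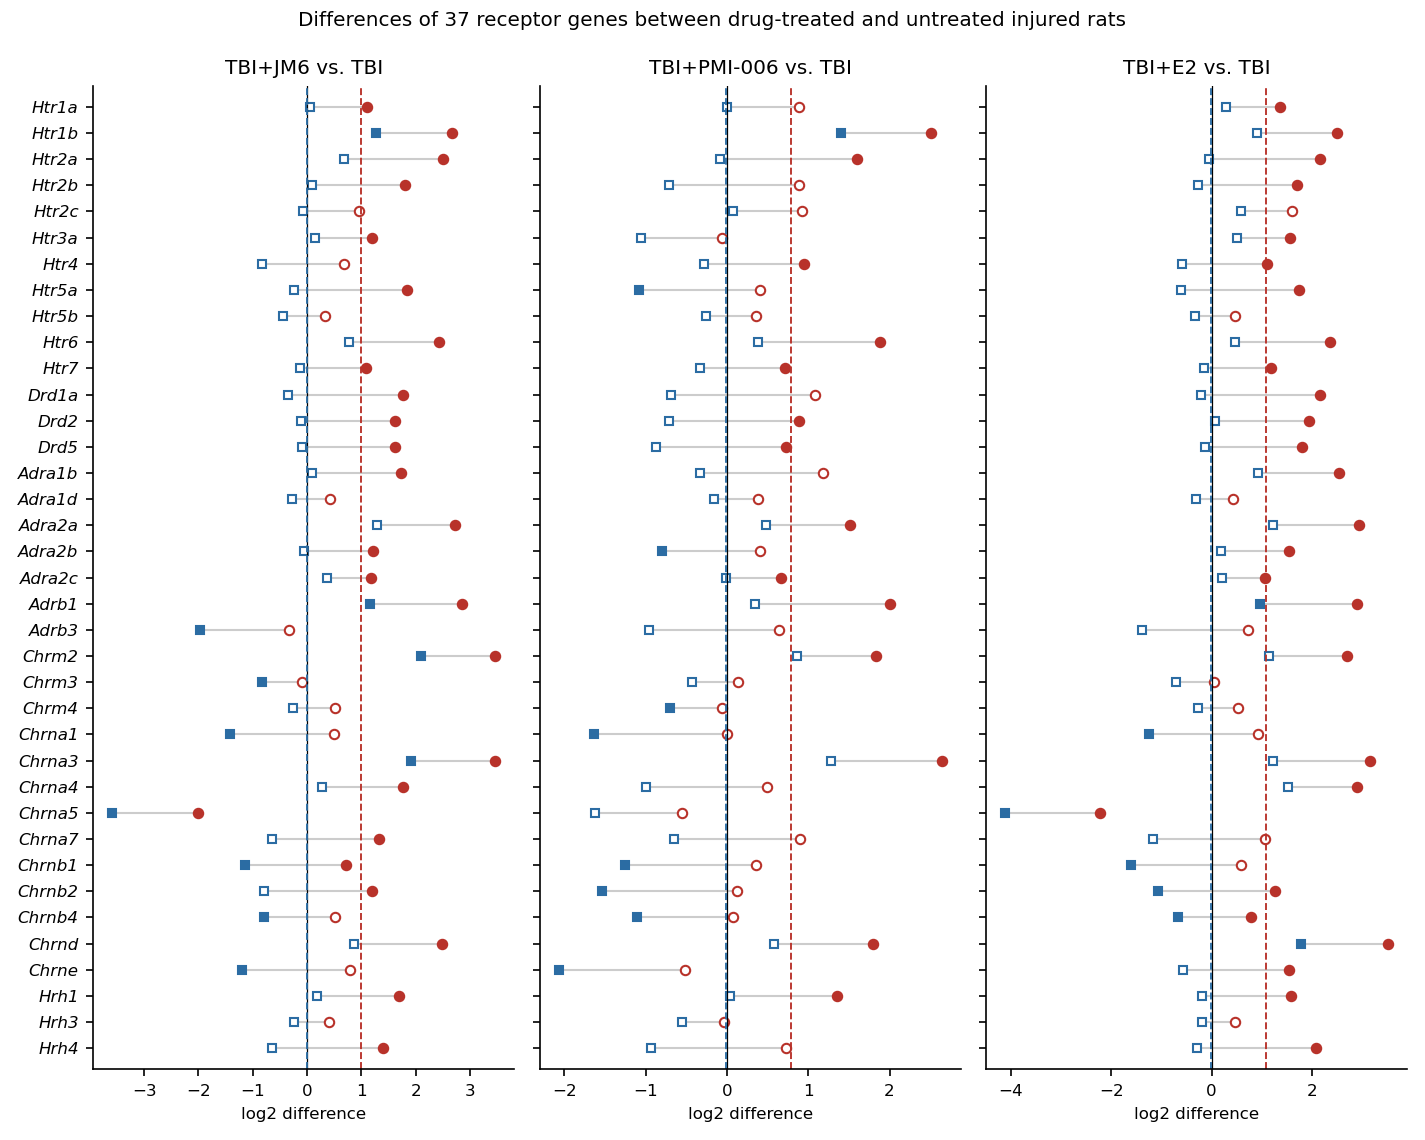
Log2 difference between each drug group and TBI (horizontal axis) for 37 of the 38 tested receptor genes (vertical axis). Red circles use the methods' scaling and blue squares quantile normalization, filled symbols passed the test, and the dashed lines are the medians of all probes tested. Red symbols lie mostly right of 0 and blue symbols on both sides, and Chrna5 lies left of 0 in all 3 panels under both scalings.

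The filter on dim probes admitted Chrna3, Chrm2, Htr1b, Chrnd, Adra2a, Htr2a, Htr2b, Htr5a and Hrh4 through drug groups alone, as these genes were well above background on every array of no Naïve, Sham or TBI group. Their higher values in the drug groups they entered through follow in part from that choice and are given as a description. Few receptor genes passed in the same direction under both scalings. In TBI+JM6 these were Chrna3, Chrm2, Adrb1 and Htr1b as higher and Chrna5 as lower, in TBI+PMI-006 Htr1b as higher, and in TBI+E2 Chrnd and Adrb1 as higher and Chrna5 as lower. Of these, Chrna3, Chrm2, Htr1b and Chrnd entered the test through drug groups, so their calls are a description. Chrna3, an α subunit best known from autonomic ganglia and the habenula, was at −7.85, −7.28 and −8.23 in TBI, −5.55, −4.33 and −5.56 in TBI+PMI-006, −4.28, −4.32 and −4.37 in TBI+JM6, and −4.82 and −4.45 in TBI+E2. No TBI array was above background, and all drug arrays lay above all TBI arrays. In TBI+JM6 Chrna3 was higher by at least 3.12-fold (3.46, SE 0.43, quantile 1.91). It was at least 1.77-fold higher in TBI+PMI-006 (2.64, quantile 1.28) and at least 2.51-fold in TBI+E2 (3.15, quantile 1.22).

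Adrb1, which was lower in TBI than in Sham, was higher in each drug group than in TBI. Its values were −4.38, −4.69 and −4.09 in TBI+PMI-006, −4.02, −3.65 and −2.95 in TBI+JM6, and −3.62 and −3.36 in TBI+E2, all well above background. With the methods' scaling all lay above the Sham arrays, while the quantile-normalized group means were 6.22 in Sham, 5.47 in TBI+PMI-006, 6.27 in TBI+JM6 and 6.09 in TBI+E2. The difference from TBI was 2.86 (SE 0.29) in TBI+JM6, 2.01 (SE 0.29) in TBI+PMI-006 and 2.90 (SE 0.32) in TBI+E2 with the methods' scaling. After quantile normalization these were 1.15, 0.35 and 0.97, of which the first and the last passed.

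Htr1b, the serotonin autoreceptor of axon terminals, was not well above background on any Naïve, Sham or TBI array, and it entered the test through TBI+JM6 alone. Its values were −8.18 to −8.15 in TBI, −5.33, −5.57 and −6.07 in TBI+PMI-006, −5.72, −5.82 and −4.97 in TBI+JM6, and −6.13 and −5.21 in TBI+E2. Against TBI it was higher in TBI+JM6 by at least 1.38-fold (2.66, SE 0.32; quantile 1.26), at least 1.24-fold in TBI+PMI-006 (2.51, SE 0.32; quantile 1.40) and at least 1.23-fold in TBI+E2 (2.49, SE 0.36; quantile 0.91, which did not pass). Chrm2 was well above background on all 3 TBI+JM6 arrays (−3.83, −5.41 and −4.87), 1 TBI+E2 array and no other. It entered the test through TBI+JM6 alone, and it was higher in TBI+JM6, by at least 2.40-fold, than in TBI (3.46, SE 0.42; quantile 2.10). Its second probe was detected on no JM6 array and gave 0.86 (SE 0.49; quantile −0.54). Chrnd, a δ subunit known from muscle, entered the test through TBI+E2 alone, and it was at least 3.38-fold higher in TBI+E2 (3.51, SE 0.44; quantile 1.78), at least 1.66-fold in TBI+JM6 (2.48; quantile 0.86) and at least 1.04-fold in TBI+PMI-006 (1.80; quantile 0.58).

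Chrna5 moved the other way. Its values were −4.58, −1.73 and −2.68 in TBI, −2.69, −4.22 and −3.75 in TBI+PMI-006, −5.86, −4.23 and −4.95 in TBI+JM6, and −5.16 and −5.29 in TBI+E2. Chrna5 was lower in TBI+JM6 than in TBI by both scalings (−2.01, SE 0.81; quantile −3.58), as it was in TBI+E2 (−2.22, SE 0.90; quantile −4.11), while the difference of TBI+PMI-006 was −0.56 (SE 0.81) and did not pass. The first TBI array lay within the range of the TBI+JM6 arrays.

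Each fold given as at least holds under the methods' scaling alone, and the quantile difference can lie below it or have the opposite sign. The other genes with the largest rises under the methods' scaling lost the call after quantile normalization. In TBI+JM6 these were Adra2a (at least 2.02-fold; 2.72, quantile 1.29), Htr2a (at least 3.53-fold; 2.50, quantile 0.68), Chrnd, Htr6 (at least 4.67-fold; 2.42, quantile 0.76) and Htr5a (at least 1.88-fold; 1.84, quantile −0.24), all without a TBI array above background, and Htr2b (1.81, quantile 0.09). Htr6 is a Gs-coupled serotonin receptor of forebrain neurons. In TBI+PMI-006 they were Htr6 (at least 3.21-fold; 1.88, quantile 0.38), Htr2a (at least 1.90-fold; 1.60, quantile −0.09), Adra2a (1.52, quantile 0.48), Hrh1 (1.36, quantile 0.04) and Htr4 (0.95, quantile −0.28), beside Chrm2 (1.84, quantile 0.86), which was above background on no array of either group and so has no fold. In TBI+E2 they were Adra2a (at least 2.34-fold; 2.93, quantile 1.21), Chrna4 (2.90, quantile 1.52), Chrm2 (at least 1.41-fold; 2.69, quantile 1.13), Adra1b (2.55, quantile 0.92), Htr6 (at least 4.49-fold; 2.37, quantile 0.46) and Htr2a (at least 2.81-fold; 2.17, quantile −0.06). The second Htr2a probe, detected on no TBI array, gave 3.14, 2.98 and 3.23 in TBI+JM6, TBI+PMI-006 and TBI+E2. After quantile normalization it kept positive values of 1.32, 1.45 and 1.11, so the 2 probes differed in sign in TBI+PMI-006 and TBI+E2.

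Some nicotinic subunits passed in opposite directions under the 2 scalings. Chrnb1, the muscle-type β subunit, was 0.71 higher in TBI+JM6 by the methods' scaling and 1.15 lower (−1.15) by quantile normalization, with both calls past the threshold. Chrnb2 gave 1.26 and −1.06 and Chrnb4, the β4 partner of Chrna3, 0.79 and −0.67 in TBI+E2. After quantile normalization, 5 of 10 nicotinic subunits were called lower in each drug group, against 13.3% of all probes in TBI+JM6, 9.21% in TBI+PMI-006 and 10% in TBI+E2, and the nicotinic median was −0.80 in TBI+JM6, −1.18 in TBI+PMI-006 and −0.87 in TBI+E2. With the methods' scaling the same medians were 0.99, 0.24 and 1.16. The direction of the nicotinic family between drug groups and TBI thus depended on the scaling.

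Of the 3 tested dopamine receptors, 3, 2 and 3 were called higher with the methods' scaling, against 69.9%, 56.7% and 70.2% of all probes, with medians of 1.63, 0.89 and 1.94 in TBI+JM6, TBI+PMI-006 and TBI+E2, and were at −0.11, −0.71 and −0.14 after quantile normalization with none passing. Drd2 rose to −4.31, −3.52 and −4.10 in TBI+JM6 (difference from TBI 1.61, SE 0.30; quantile −0.11). Other genes gave smaller differences in the same order of groups. Chrm3 gave −0.10, 0.13 and 0.04, Adra1d 0.42, 0.38 and 0.42, and the first Hrh3 probe 0.40, −0.04 and 0.46, while the second Hrh3 probe gave 2.10, 1.29 and 1.91. The 2 Hrh3 probes thus differed in sign in TBI+PMI-006 and in size in the others, and quantile normalization left −0.24, −0.55 and −0.18 against 1.18, 0.47 and 0.93. Of the 6 genes with 2 probes, the probe of higher signal lay downstream in 5.

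Drd5 had a difference from TBI of 1.63 (SE 0.28), 0.72 (SE 0.28) and 1.79 (SE 0.31) in TBI+JM6, TBI+PMI-006 and TBI+E2, Drd1a of 1.76, 1.08 and 2.16, Htr1a of 1.11, 0.88 and 1.36, Htr7 of 1.08, 0.71 and 1.18, and Chrna7 of 1.33, 0.90 and 1.06. Of these, Drd1a, Htr1a and Chrna7 in TBI+PMI-006 and Chrna7 in TBI+E2 did not pass, and quantile normalization left none past the threshold. Adra1a was well above background on 1 array of each drug group, and Hrh2 likewise. Of the 16 transport and synthesis genes, 13, 8 and 13 were called higher in TBI+JM6, TBI+PMI-006 and TBI+E2, with medians of 1.01, 0.81 and 1.22, or 0.08, −0.05 and −0.07 after quantile normalization. Of the 15 receptor regulators, 11, 7 and 11 were called higher, with medians of 1.07, 0.46 and 0.99, or 0.10, −0.11 and 0.23 after quantile normalization. Of all probes, 69.9%, 56.7% and 70.2% were called higher in the same comparisons.

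The drug groups shared a scanning session and could be compared with one another, at the single dose and time of each, although the doses differed between compounds. All TBI+PMI-006 arrays shared slide 3 with 1 TBI+JM6 array, and slide 4 held the others. TBI+PMI-006 and TBI+E2 were therefore never on 1 slide, and compound and slide cannot be told apart between them. No receptor gene passed the test in any of the 3 pairs by limma. The unadjusted counts and the counts without overlap below are for the receptor genes alone. The shares of all probes by the same measures are not given. In TBI+JM6 against TBI+PMI-006, 0 were called higher and 0 lower against 0.0131% and 0% of all probes, with 11 at an unadjusted p under 0.05 and 8 by the methods' t-test before adjustment (0 after). The median difference was 0.54 for the receptor genes and 0.18 for all probes, and 14 genes were higher and 2 lower without overlap. In TBI+PMI-006 against TBI+E2, 0 and 0 were called against 0.00438% higher and 0.105% lower of all probes, with 14 at an unadjusted p under 0.05 and 13 by the methods' t-test unadjusted (0 after adjustment). The medians were −0.64 and −0.26, and 1 gene was higher and 20 lower without overlap. In TBI+JM6 against TBI+E2, 0 and 0 were called against 0% and 0.0175%, with 1 at an unadjusted p under 0.05 and 2 by the methods' t-test unadjusted (0 after adjustment). The medians were −0.15 and −0.08.

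**Figure D5:**
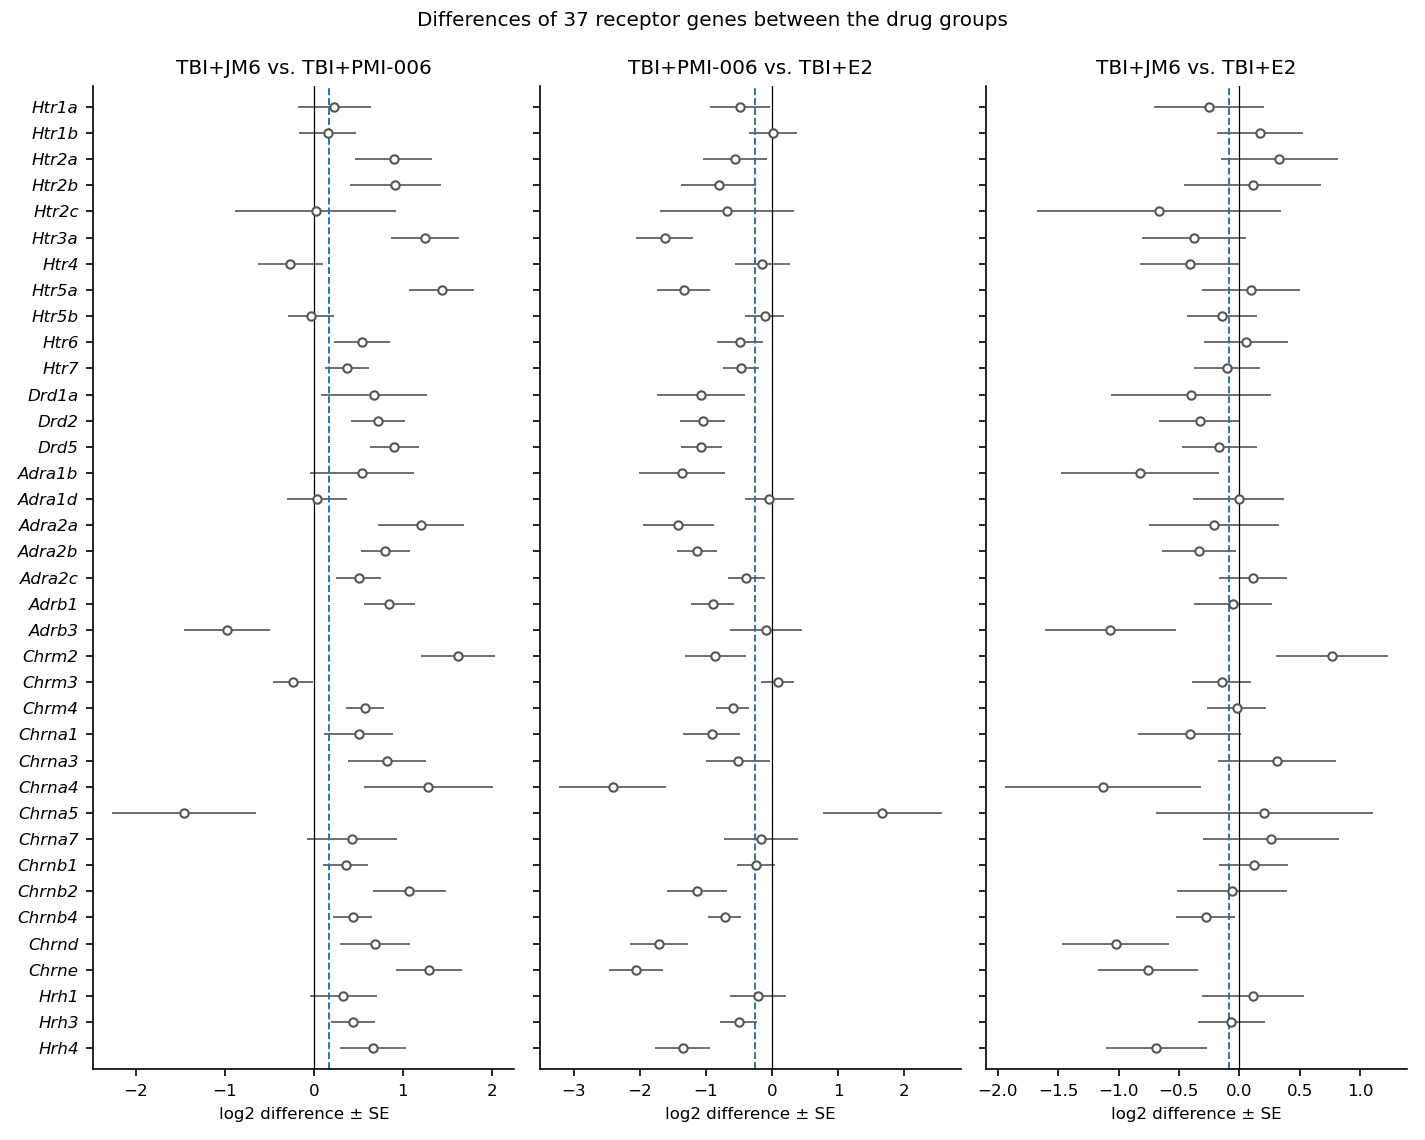
Log2 difference ± SE from limma (horizontal axis, ranges differ between panels) for 37 of the 38 tested receptor genes (vertical axis) between pairs of drug groups. Open points did not pass the test and the blue dashed line is the median of all probes tested. Of the 37 points, 32 lie right of 0 in TBI+JM6 against TBI+PMI-006, 34 lie left of 0 in TBI+PMI-006 against TBI+E2 and 25 lie left of 0 in TBI+JM6 against TBI+E2.

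The largest of these differences had wide intervals. Chrm2 was 1.62 higher in the mean in TBI+JM6 than in TBI+PMI-006 (95% interval 0.72 to 2.52, adjusted p = 0.30, limma), Chrna5 had the opposite sign at −1.46 (−3.20 to 0.28, adjusted p = 0.65), Htr5a was at 1.43 (0.65 to 2.22, adjusted p = 0.30) and Chrne at 1.30 (0.50 to 2.09, adjusted p = 0.34). Chrne was at −5.79, −6.40 and −6.44 in TBI+PMI-006, −5.29, −4.53 and −4.91 in TBI+JM6 and −3.88 and −4.43 in TBI+E2, so that the TBI+PMI-006 arrays lay below both other groups. Between TBI+PMI-006 and TBI+E2 its difference was −2.05 (−2.95 to −1.16, adjusted p = 0.086), that of Chrna4 −2.41 (−4.17 to −0.65, adjusted p = 0.20), that of Chrnd −1.71 (−2.66 to −0.76, adjusted p = 0.13), that of Chrna5 1.67 (−0.28 to 3.61, adjusted p = 0.42) and that of Htr3a −1.62 (−2.55 to −0.69, adjusted p = 0.14). Between TBI+JM6 and TBI+E2 the largest was Chrna4 at −1.13 (−2.89 to 0.63, adjusted p = 1.0). For Adrb1 this pair differed by −0.05 (−0.75 to 0.65) and for Htr7 by −0.10 (−0.69 to 0.49).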

How the data were processed

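Hippocampal RNA of 16 rats was measured on single-colour Agilent arrays after poly(A) RNA amplification. The deposited scanner files (Feature Extraction 9.5.3.1, rn4 positions) hold a background-subtracted intensity for each spot, not normalized between arrays. A matrix that the authors deposited, on a linear scale, gives each value as a ratio to its array's 75th percentile, and it served as an alternative. Spots of a probe were averaged, outlier spots and control spots were left out (for S100a10 that of 1 TBI array), and log2 was taken after division by the 75th percentile of the detected probes. The test covered 22827 probes, detected throughout at least 1 group, with limma 3.58.1 (R 4.3.3, and the data.table package, version 1.17.8) in 1 model of 6 groups with 10 residual degrees of freedom and Benjamini-Hochberg adjustment. Figures used Python 3.11.15 and matplotlib 3.10.9. The number of arrays limits the precision. The labels name each array as a separate rat.

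Genes named were, in each comparison, up to 10 called genes per direction, a set list of receptors, genes whose probes disagreed, and called list genes. The receptors and lists were chosen with earlier results of these data known. Alternatives were other scalings and background corrections, no filter, the t-test named in the methods (p under 0.05, over 1.2-fold), blocks, and leaving out each array. Scaling to the E1A control spots and removal of a GC trend were added after seeing the data. Summed list signals cover the genes with a value on all arrays. The fits were tested on simulated data. The methods give 3 rats per group, and 2 Sham and 2 TBI+E2 arrays were analysed here. Which of the amplification kits each rat's RNA had is not given in the sources used here. The values of 1 tested gene are not reported here, although it is counted.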

Additional observations from a re-analysis of the deposited data

How the results depend on the processing

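Counts of receptor genes passing the test are given in the order TBI against Sham, TBI against Naïve, Sham against Naïve, TBI+JM6, TBI+PMI-006 and TBI+E2 against TBI, where they were 3, 6, 1, 27, 14 and 28 with the methods' scaling. Normexp background correction gave 0, 0, 0, 2, 0 and 0, and quantile normalization 2, 7, 2, 11, 9 and 7. The 75th percentile over all probes gave 3, 6, 4, 13, 10 and 15, and the authors' matrix 2, 6, 3, 10, 9 and 6. Without the filter on dim probes 1, 1, 0, 29, 16 and 34 passed. The methods' t-test gave 0, 0, 0, 14, 7 and 16 after adjustment and 4, 8, 4, 18, 12 and 23 before. E1A scaling gave 2 in Sham against Naïve, 0 and 4 for TBI against Sham and Naïve, and 9, 8 and 8 for the drugs, and removal of the GC trend 4, 7, 6, 14, 12 and 13. The arrays of one session alone gave 0 in each of the 6 comparisons within a session, as did slide as a fixed block in the comparisons among Naïve, Sham and TBI, where TBI against Sham then rests on the Naïve arrays of both slides. Slide as a random block gave 8, 6, 1, 30, 17 and 31, with a consensus correlation of −0.0871, and 4 for TBI+PMI-006 against TBI+E2. Between drug groups the unadjusted t-test gave 8 for TBI+JM6 against TBI+PMI-006, 2 for TBI+JM6 against TBI+E2 and 13 for TBI+PMI-006 against TBI+E2, and the other settings 0. Shares of all probes are given above only for the methods' scaling and, in the drug groups against TBI, for quantile normalization. For the other settings these counts describe the receptor genes alone. The causes were not tested.

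Replicate numbers did not pair the samples: 36 same-number pairs had deviations correlated at −0.185 to 0.182 (median 0.019), and 3 were over 0.1. With the replicate block 2, 6, 0, 29, 14 and 28 genes passed.

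With 1 array left out the counts ranged from 0 to 5 for TBI against Sham (0 without the second Sham or the third TBI array, 1 without the first Sham or second TBI array, 5 without the first TBI array), from 0 to 4 for TBI against Naïve (0 without the third TBI array, 1, 2 and 3 without the first, the second and the third Naïve arrays, 4 without the first or second TBI array) and from 0 to 1 for Sham against Naïve (0 without the first Sham array). They ranged from 20 to 27 for TBI+JM6, from 8 to 14 for TBI+PMI-006 (8 without its second array, 9 without the third TBI array) and from 20 to 28 for TBI+E2 against TBI, and were 0 for the 3 drug pairs. Where 1 array was left in a group it was assumed to vary like the others.

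Among the genes named, signs turned as follows. Normexp correction, which flattens dim spots, gave 0.34 for Adrb1 in TBI against Sham. In TBI+PMI-006 against TBI it gave −0.47 for Adra2a, −0.11 for Adrb1, −0.35 for Chrm2, −0.060 for Chrna3, −0.16 for Chrnd, −0.19 for Htr1b, −0.31 for Htr2a and −0.060 for Htr4. Quantile normalization and the authors' matrix gave −0.088 and −0.14 for Htr2a and −0.28 and −0.25 for Htr4 there, E1A scaling gave −0.039 for Htr4, and the matrix 0 for Chrm2. In TBI+JM6 against TBI, Chrnb1 gave −1.15 by quantile normalization, −0.076 by the percentile of all probes, −0.94 by the matrix, −0.33 by E1A scaling and −0.39 without the GC trend, and Htr5a −0.24 and −0.21 by quantile normalization and the matrix. In TBI+E2 against TBI, Chrnb2 gave −0.053 by normexp, −1.06 by quantile normalization and −0.92 by the matrix, Chrnb4 gave −0.67, −0.045, −0.61, −0.46 and −0.46 by quantile normalization, the percentile of all probes, the matrix, E1A scaling and without the GC trend, and Htr2a −0.058 and −0.19 by quantile normalization and the matrix. Dim probes and the 2 or 3 arrays a group limit what these values can show.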
